A study of Homo sapiens with 12 samples.

Results

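SEMA7A encodes semaphorin 7A, a membrane-anchored guidance protein, and it was examined here together with 4 other semaphorins (SEMA3A, SEMA3C, SEMA4B and SEMA4C), 3 plexins (PLXNC1, PLXNA1 and PLXNB2) and both neuropilins (NRP1 and NRP2). These 10 genes, of 28163 gene symbols on chromosomes 1 to 22 and X in the deposited tables, were chosen by name. Each was followed through the annotated transcript that collected the most fragments in all 12 libraries together. SEMA7A was singled out because its rise in PC3 cells after LARP4A knockdown was already known from these tables. That rise is therefore described and not tested. The other 9 genes were also chosen with results of these tables in view. All 10 passed the filter on low counts and are among the 15671 genes tested.

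PC3 is a prostate adenocarcinoma line, grown in RPMI 1640, and MG63 is an osteosarcoma line, grown in alpha-MEM, both with FBS. The labels give both lines the genotype WT. Each line was treated with Lipofectamine RNAiMAX and a final 10 nM of siRNA, and RNA was extracted after 72 h. The siRNA targeted no gene (siControl), LARP4A (siLARP4A) or LARP4B (siLARP4B). The 6 groups hold 2 libraries of poly(A) RNA each, which the series calls biological replicates, and siControl cells received the same transfection. LARP4A (gene symbol LARP4) and its relative LARP4B bind RNA. The sequences of the siRNAs, and how many were used per target, are not given in the sources used here.

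Semaphorins are secreted or membrane-bound ligands that steer growing axons and also act on the adhesion, migration and vessel growth of other cells. Plexins are their signalling receptors, with a cytoplasmic domain that acts on small GTPases of the Ras family. Neuropilins are co-receptors that bind class 3 semaphorins and VEGF, and SEMA7A is anchored by a glycolipid and binds PLXNC1 and integrins that contain the beta-1 chain.

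SEMA7A, SEMA4C and PLXNA1 were called higher in each comparison of an siRNA with siControl. The sequence just before the start is shown for SEMA7A and SEMA4C and not for PLXNA1, whose changes were the smallest of the 3 in each comparison. The pair was chosen after the values were seen. The 250 bases that precede the start of each transcript model used are given 5′ to 3′ on the gene's strand. They are from RefSeq's table for GRCh38.p14, in which 8 of the 10 genes were found (SEMA3A and NRP1 were not). SEMA7A has 2 windows there, and only that at the start used is shown. For SEMA4C, the GENCODE annotation puts the gene's 5′ end 677 bases from the start used. The SEMA7A window is chr15:74433959-74434208 (minus strand) and the SEMA4C window is chr2:96870081-96870330 (minus strand). Capitals mark GC boxes (GGGCGG, searched on both strands, so that CCGCCC is the same motif) and the cyclic AMP response element (TGACGTCA, both strands).
SEMA7A: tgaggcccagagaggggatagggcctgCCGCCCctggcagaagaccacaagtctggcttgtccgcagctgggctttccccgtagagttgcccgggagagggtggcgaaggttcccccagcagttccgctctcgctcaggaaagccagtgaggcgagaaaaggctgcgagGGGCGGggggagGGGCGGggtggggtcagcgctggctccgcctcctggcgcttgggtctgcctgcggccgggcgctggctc
SEMA4C: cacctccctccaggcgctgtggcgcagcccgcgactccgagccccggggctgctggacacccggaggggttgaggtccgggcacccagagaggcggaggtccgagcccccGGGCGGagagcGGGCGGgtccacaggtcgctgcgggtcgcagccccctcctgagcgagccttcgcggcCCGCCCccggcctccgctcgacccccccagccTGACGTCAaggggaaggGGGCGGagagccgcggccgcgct
The SEMA7A window held 3 GC boxes and 70% G or C. The SEMA4C window held 4 GC boxes, 1 cyclic AMP response element and 78% G or C. No match overlapped another, and TATAAA was in neither window on either strand. Of 35116 promoter windows of the same length in that table, 42.6% held a GC box, 1.65% the response element and 10.7% TATAAA.

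The libraries rest on 16950000 to 24865000 fragments each, the total behind the authors' normalised values. PC3 siLARP4A replicate 1 was the deepest. The libraries of a group had a Pearson correlation of log2 values across genes of 0.994 to 0.995 and still differed beyond sampling noise, with a chi-square per degree of freedom of 1.63 to 6.28. LARP4 fell to 12.6% of its siControl level in PC3 and to 25.8% in MG63 with siLARP4A, and LARP4B fell to 18.4% and 30.5% with siLARP4B. LARP4 also rose with siLARP4B in MG63, by 0.44 on the log2 scale (1.35-fold, edgeR adjusted p 5.2e-06). Of 5 epithelial markers (KRT8, KRT18, KRT19, EPCAM and CDH1) the summed level was 796 to 1042 FPKM in PC3 and 54.6 to 72.2 FPKM in MG63. The prostate luminal markers KLK3 and FOLH1 were at 0 or 1 fragment in every PC3 library. MG63 had SPARC at 654 to 916 FPKM, COL1A1 at 719 to 1337 FPKM and COL1A2 at 379 to 660 FPKM. Of the osteoblast markers there, SP7 and IBSP reached at most 4 fragments. RUNX2 had 15 to 68 fragments, ALPL 17 to 51 and BGLAP 50 to 75 (5.14 to 7.76 FPKM).

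SEMA7A (chromosome 15, 74409289 to 74433958, minus strand, hg38) was measured in FPKM, fragments scaled to transcript length and to the library's total. In PC3 it stood at 19.1 and 18.2 FPKM in the siControl libraries, at 71.1 and 79.0 FPKM with siLARP4A and at 36.8 and 34.7 FPKM with siLARP4B. The 3 groups did not overlap, with siLARP4A highest and siControl lowest. The difference between siLARP4A and siControl, for which the gene was singled out, was 2.00 on the log2 scale (SE 0.065), or 3.99-fold, on 5061 to 5966 fragments with siLARP4A and 1158 to 1169 with siControl. With siLARP4B SEMA7A rose by 0.90 on the log2 scale (SE 0.067), or 1.86-fold, with an edgeR adjusted p of 3.1e-10. That comparison uses the same siControl libraries. Log2 fold changes and adjusted p-values are from edgeR's quasi-likelihood test over all genes, with a threshold of 0.05 on the adjusted p.

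In MG63 SEMA7A was low. The siControl libraries had 2.77 and 2.65 FPKM, the siLARP4A libraries 5.49 and 5.52 FPKM and the siLARP4B libraries 6.85 and 5.87 FPKM. All 4 knockdown libraries were above both siControl libraries, on 169 and 171 fragments in siControl and 324 to 453 in the others. SEMA7A rose by 1.04 on the log2 scale (SE 0.107) with siLARP4A, 2.06-fold, with an adjusted p of 1.8e-07, and by 1.26 (SE 0.104) with siLARP4B, 2.39-fold, with an adjusted p of 4.5e-09. The siLARP4A and siLARP4B libraries of MG63 differed by -0.22 (adjusted p 0.061), which did not pass the threshold. The log2 change with siLARP4A was 0.96 larger in PC3 than in MG63 (a description, as above). That with siLARP4B was 0.36 smaller in PC3 (SE 0.125, edgeR adjusted p 0.035), on PC3 siControl libraries that also entered the choice of SEMA7A. That last call is not stable: it was lost in 12 of 17 alternatives, among them 7 of the 8 fits that left out a library. The annotation has MIR6881 within SEMA7A on the same strand. The 3 annotated SEMA7A models gave ratios of mean FPKM between 2.01 and 2.01 on the log2 scale in PC3 with siLARP4A and between 1.20 and 1.24 in MG63 with siLARP4B.

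**Figure D1:**
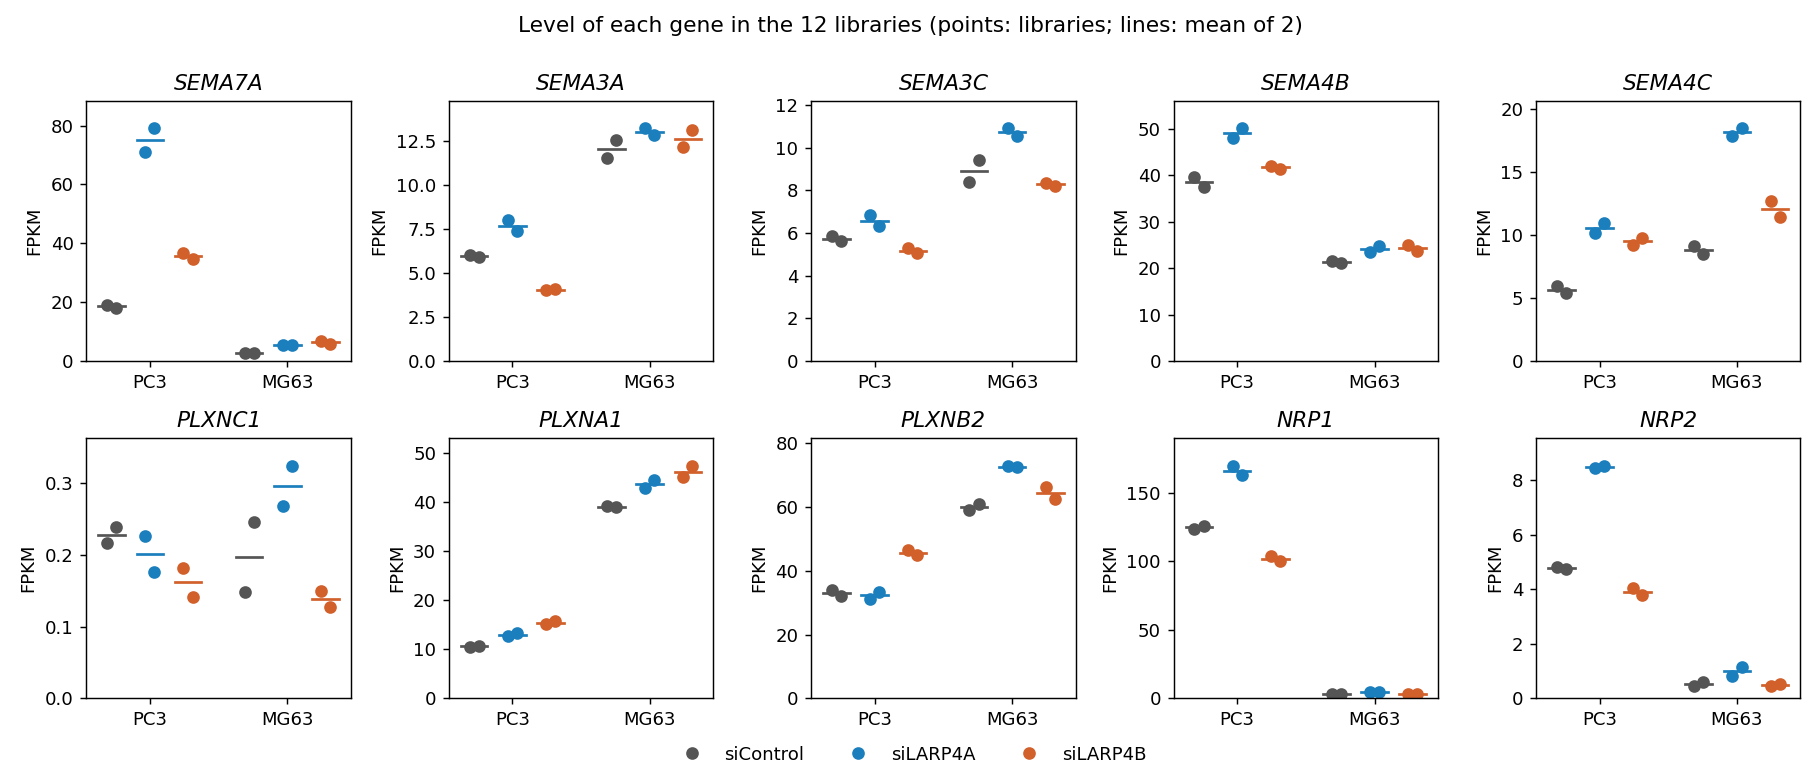
FPKM of the 10 genes (vertical axis, from 0, with its own scale for each gene) in the siControl, siLARP4A and siLARP4B libraries of PC3 and MG63; each point is a library and each line the mean of 2. SEMA7A reaches 71.1 and 79.0 FPKM in the PC3 siLARP4A libraries, and NRP1 is above 100 FPKM in all 6 PC3 libraries and below 5 FPKM in all 6 MG63 libraries.

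SEMA4C (chromosome 2, 96859718 to 96870080, minus strand), a transmembrane semaphorin and ligand of PLXNB2, also rose with each siRNA in each line. In PC3 it stood at 5.92 and 5.38 FPKM in siControl, 10.1 and 11.0 FPKM with siLARP4A and 9.23 and 9.76 FPKM with siLARP4B. The siControl libraries lay below all 4 others, and siLARP4A lay above siLARP4B. The log2 fold changes were 0.89 (SE 0.082, adjusted p 2.3e-08) with siLARP4A and 0.71 (SE 0.085, adjusted p 4.8e-07) with siLARP4B, and the siRNAs differed by 0.18 (adjusted p 0.054). In MG63 the same order held, with 9.11 and 8.49 FPKM in siControl, 17.8 and 18.4 FPKM with siLARP4A and 12.7 and 11.4 FPKM with siLARP4B. Here the changes were 1.06 (adjusted p 6.6e-10) and 0.48 (adjusted p 4.4e-05), and siLARP4A exceeded siLARP4B by 0.58 (SE 0.072, adjusted p 8.2e-07). The 2 lines' changes with siLARP4A differed by -0.18 (adjusted p 0.38) and those with siLARP4B by 0.23 (adjusted p 0.15).

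SEMA4B (chromosome 15, 90201330 to 90229679, plus strand), another transmembrane class 4 semaphorin, had smaller changes than SEMA4C, a difference between genes that was not tested. It stood at 39.6 and 37.5 FPKM in PC3 siControl, 48.0 and 50.1 FPKM with siLARP4A and 42.0 and 41.4 FPKM with siLARP4B. It rose by 0.34 with siLARP4A (SE 0.052, adjusted p 2.3e-05), while the 0.07 with siLARP4B did not pass (adjusted p 0.27; scaling by library total alone gave 0.16 and an adjusted p of 0.013). In MG63 it went from 21.5 and 21.1 FPKM to 23.5 and 24.8 FPKM with siLARP4A and to 24.9 and 23.7 FPKM with siLARP4B, changes of 0.20 (adjusted p 0.010) and 0.22 (adjusted p 0.0038). Leaving out MG63 siLARP4A replicate 2 or either siControl replicate ended the first of these calls, with 0.15 to 0.21, and leaving out siLARP4B replicate 1 (0.18) or siControl replicate 2 (0.19) ended the second.

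SEMA3A (chromosome 7, 83955777 to 84194789, minus strand), a secreted ligand of NRP1 and class A plexins, moved in opposite directions with the siRNAs in PC3. Its level was 6.02 and 5.92 FPKM in siControl, 7.99 and 7.40 FPKM with siLARP4A and 4.03 and 4.08 FPKM with siLARP4B. The 3 groups did not overlap. SEMA3A rose by 0.36 with siLARP4A (SE 0.064, adjusted p 1.2e-04) and fell by 0.60 with siLARP4B (SE 0.070, adjusted p 3e-07). In MG63 all 6 libraries lay between 11.6 and 13.2 FPKM, the siLARP4B libraries overlapped those of siControl and of siLARP4A, and the changes of 0.13 with siLARP4A and 0.10 with siLARP4B did not pass (adjusted p 0.11 and 0.23). The siLARP4B change differed between the lines by -0.69 (SE 0.091, adjusted p 6e-06).

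SEMA3C (chromosome 7, 80742536 to 80919351, minus strand), a secreted ligand that uses neuropilins, changed little. In PC3 it stood at 5.84 and 5.64 FPKM in siControl, 6.85 and 6.32 FPKM with siLARP4A and 5.28 and 5.04 FPKM with siLARP4B. Its differences of 0.19 with siLARP4A (adjusted p 0.049) and -0.19 with siLARP4B (adjusted p 0.0497) only just passed, and 9 and 13 of the 14 alternatives lost them. The siRNAs differed from each other by 0.38 (SE 0.076, adjusted p 1.7e-04). In MG63 SEMA3C went from 8.37 and 9.42 FPKM to 10.9 and 10.5 FPKM with siLARP4A, a rise of 0.29 (adjusted p 0.0033) that was lost without siControl replicate 1 (0.20, adjusted p 0.107). With siLARP4B it stood at 8.34 and 8.22 FPKM, a difference of -0.08 (adjusted p 0.43).

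PLXNC1 (chromosome 12, 94148577 to 94307675, plus strand), the plexin receptor of SEMA7A, was measured at a very low level. It had 18 to 45 fragments in each of the 12 libraries, or 0.127 to 0.324 FPKM. No change against siControl passed the threshold in either line, with differences of -0.17 and -0.52 in PC3 and 0.60 and -0.48 in MG63 and standard errors of 0.28 to 0.32, so that changes of this size were not detectable at this depth. Only the MG63 difference between the siRNAs passed, at 1.08 higher with siLARP4A (SE 0.298, adjusted p 0.0052), on 35 and 45 against 22 and 18 fragments, and it did not pass without siLARP4A replicate 2 (0.93, adjusted p 0.061). A model of CEP83 overlaps the end of PLXNC1 on the other strand, and how strand was handled is not stated, so fragments there could come from either gene. ITGB1, the beta-1 integrin chain, was far higher, at 238 and 254 FPKM in PC3 siControl and 314 and 317 FPKM in MG63 siControl.

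PLXNA1 (chromosome 3, 126988594 to 127037392, plus strand), a signalling receptor for class 3 semaphorins bound to neuropilins, rose in all 4 comparisons with siControl. In PC3 it stood at 10.6 and 10.7 FPKM in siControl, 12.7 and 13.3 FPKM with siLARP4A and 15.1 and 15.7 FPKM with siLARP4B. The 3 groups did not overlap, and siLARP4B was highest. The changes were 0.28 (SE 0.050, adjusted p 1.3e-04) and 0.49 (SE 0.050, adjusted p 4.2e-08), and siLARP4A was lower than siLARP4B by -0.21 (adjusted p 7.6e-04). In MG63 it stood at 39.1 and 39.0 FPKM, then 42.9 and 44.5 FPKM, then 45.0 and 47.4 FPKM in the same order. Those changes were 0.18 (adjusted p 0.0046; lost without siLARP4A replicate 2, 0.14, or siControl replicate 2, 0.16) and 0.27 (adjusted p 7.3e-05). The siLARP4B change was larger in PC3 by 0.22 (adjusted p 0.017; adjusted p 0.066 without MG63 siControl replicate 1, 0.067 without MG63 siLARP4B replicate 1 and 0.059 with the deduplicated table of PC3 siControl replicate 2).

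PLXNB2 (chromosome 22, 50274979 to 50301669, minus strand), the receptor of SEMA4C, differed between the lines in its response. In PC3 it stood at 34.0 and 32.0 FPKM in siControl, 31.1 and 33.5 FPKM with siLARP4A and 46.5 and 44.8 FPKM with siLARP4B. The siControl and siLARP4A libraries overlapped and both siLARP4B libraries lay above them. The difference was -0.04 with siLARP4A (adjusted p 0.54) and the rise with siLARP4B was 0.43 (SE 0.051, adjusted p 4.1e-07). In MG63 it stood at 59.0 and 60.9 FPKM in siControl, 72.9 and 72.4 FPKM with siLARP4A and 66.2 and 62.5 FPKM with siLARP4B. There it rose by 0.30 with siLARP4A (SE 0.049, adjusted p 9e-05), and the 0.13 with siLARP4B (adjusted p 0.045) was lost in 9 of 13 alternatives. Tests of the line difference gave -0.34 for siLARP4A (SE 0.071, adjusted p 0.0026; -0.24 and 0.058 without PC3 siControl replicate 1) and 0.30 for siLARP4B (SE 0.071, adjusted p 0.0030).

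NRP1 (chromosome 10, 33177493 to 33334667, minus strand), the co-receptor of SEMA3A, had the highest level per length of the 10 genes in PC3. It stood at 123 and 126 FPKM in siControl, 170 and 163 FPKM with siLARP4A and 104 and 100.1 FPKM with siLARP4B. The 3 groups did not overlap: NRP1 rose by 0.40 with siLARP4A (SE 0.046, adjusted p 4.8e-07) and fell by 0.33 with siLARP4B (SE 0.047, adjusted p 4.4e-06). In MG63, at 3.24 and 3.45 FPKM in siControl, it reached 4.39 and 4.63 FPKM with siLARP4A, a rise of 0.45 (SE 0.074, adjusted p 7.9e-05). With siLARP4B it stood at 3.56 and 3.10 FPKM, a difference of 0.02 (adjusted p 0.87). The siLARP4B change differed between lines by -0.35 (adjusted p 0.0051; -0.25 and 0.063 without MG63 siLARP4B replicate 1).

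NRP2 (chromosome 2, 205682501 to 205798131, plus strand), a co-receptor of SEMA3C and SEMA3F, rose with siLARP4A in both lines. In PC3 it stood at 4.81 and 4.75 FPKM in siControl, 8.46 and 8.53 FPKM with siLARP4A and 4.06 and 3.78 FPKM with siLARP4B. The siLARP4A libraries lay far above the rest. NRP2 rose by 0.82 with siLARP4A (SE 0.085, adjusted p 1.2e-07). With siLARP4B the model used gave -0.33 (SE 0.093, adjusted p 0.0065), but the longest NRP2 model gave 0.08 (adjusted p 0.51), and the call was lost without PC3 siLARP4B replicate 2 (-0.25) or siControl replicate 1 (-0.27). In MG63 NRP2 was low, with 55 and 78 fragments in siControl and 98 and 142 with siLARP4A, a rise of 0.91 (SE 0.169, adjusted p 2.9e-04). With siLARP4B it had 58 and 67 fragments, a difference of -0.11 (adjusted p 0.72).

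The disagreeing NRP2 models differ in their 3′ end. The NRP2 model used ends at base 205798131 and another with a nearer end at base 205779713, and fragments in shared exons are counted in each. Fragments of the nearer-end model were 64.5% and 68.4% of those of the model used in PC3 siControl, 66.5% and 65.6% with siLARP4A and 86.9% and 85.3% with siLARP4B. Both siLARP4B libraries were above the other 4 libraries of PC3, and their mean was 19.6 percentage points above siControl. Another pair of models with these ends gave 19.6 points too. In MG63 the percentages were 87.3% and 64.1% in siControl, 69.4% and 73.2% with siLARP4A and 100% and 85.1% with siLARP4B, on at most 142 fragments of the model used, and siControl overlapped siLARP4A and siLARP4B. These percentages were read after the models had been seen to disagree and carry no test. For NRP1 the shortest model had 38.1% to 40.1% of the fragments of the model used in PC3, with the groups overlapping, and 46.7% to 53.0% in MG63.

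**Figure D2:**
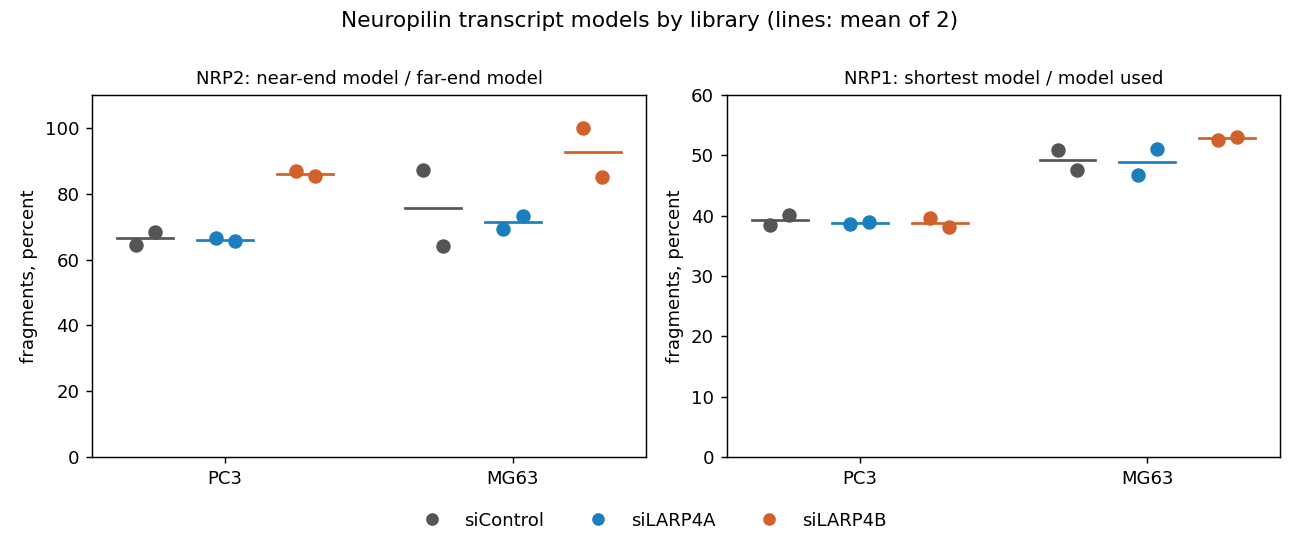
Fragments of one neuropilin transcript model as a percent of another (vertical axis) in each library, with the siRNA groups of PC3 and MG63 along the horizontal axis; points are libraries and lines are means of 2. For NRP2 the PC3 siLARP4B libraries sit at 86.9% and 85.3%, above the other 4 PC3 libraries, while the NRP1 percentages of PC3 lie between 38.1% and 40.1% in all groups.

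Counted over the 10 genes, 8 were called higher and 0 lower with siLARP4A in PC3, SEMA7A included, where 36.0% of all genes tested were called, 17.0% higher and 19.0% lower. Nothing is read from that count, since the contrast was used to choose SEMA7A. The median log2 fold change of the 10 was 0.35 (0.34 without SEMA7A), against 0 for all genes. With siLARP4B in PC3, 4 were higher and 4 lower, with a median of -0.06, where 44.6% of all genes were called, 21.3% higher and 23.4% lower. Without SEMA7A, whose PC3 siControl values entered its choice, 3 were higher and 4 lower. Scaling by library total alone moved the higher share of those calls over all genes from 47.7% to 61.4% and left the directions of the 10 genes as they were, with SEMA4B gaining and SEMA3C losing its call. Between the siRNAs in PC3, 5 of the 9 genes other than SEMA7A, left out for the same reason, were higher with siLARP4A (SEMA3A, SEMA3C, SEMA4B, NRP1 and NRP2) and 2 lower (PLXNA1 and PLXNB2), beside 54.2% of all genes, 27.0% higher and 27.2% lower.

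In MG63, 8 of the 10 genes rose with siLARP4A and 0 fell, with a median of 0.37 against 0.01 for all genes. Of all genes tested, 26.4% were called there, 14.5% higher and 11.9% lower. Without SEMA7A, 7 of 9 genes rose and 0 fell, with a median of 0.30. The calls of SEMA3C, SEMA4B and PLXNA1 among them depended on single libraries, as given above. The 10 genes were chosen with results of these tables in view, so their counts in MG63 are a description. With siLARP4B 5 rose and 0 fell, with a median of 0.11, beside 35.1% of all genes, 18.8% higher and 16.3% lower. That count was 3 without MG63 siLARP4B replicate 1 and 3 without siControl replicate 2. Between the siRNAs in MG63, 6 of the 10 were higher with siLARP4A (SEMA3C, SEMA4C, PLXNC1, PLXNB2, NRP1 and NRP2) and 0 lower, beside 43.5% of all genes, 22.1% higher and 21.5% lower. The comparisons within a line share libraries.

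**Figure D3:**
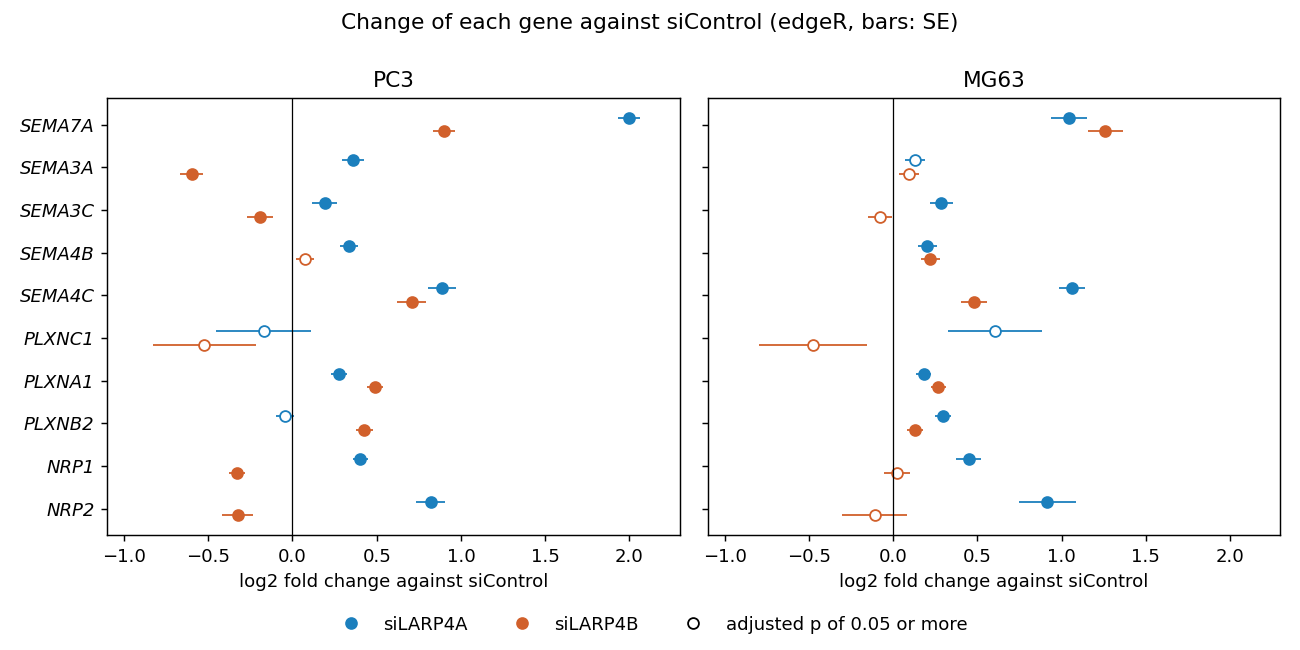
Log2 fold change against siControl (horizontal axis) of the 10 genes in PC3 and MG63, with siLARP4A and siLARP4B in separate colours; bars are the standard error of edgeR's fit on 2 libraries per group, and open points have an adjusted p of 0.05 or more. The points of SEMA7A, SEMA4B, SEMA4C and PLXNA1 are right of 0 in all 4 comparisons, that of SEMA4B with siLARP4B in PC3 being open. SEMA3A, SEMA3C, NRP1 and NRP2 lie on opposite sides of 0 for the siRNAs in PC3.

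Tested as differences between the lines, the siLARP4A changes of 1 of the 9 genes other than SEMA7A differed (PLXNB2, lower in PC3), where 11.4% of all genes did, 4.09% higher in PC3 and 7.30% lower. Without PC3 siControl replicate 1 the count was 0. SEMA7A is left out of this count because its PC3 siLARP4A values were used to choose it. The PC3 siControl values set against them also enter the siLARP4B line difference, where SEMA7A is counted. Without SEMA7A, 2 of the 9 genes were higher in PC3 there and 2 lower. The siLARP4B changes of 5 genes differed, PLXNA1 and PLXNB2 higher in PC3 and SEMA7A, SEMA3A and NRP1 lower, where 27.9% of all genes did, 10.3% higher and 17.5% lower. Without MG63 siControl replicate 1 that count was 3, and without MG63 siLARP4B replicate 1 it was 2. Scaling by library total alone moved the higher share of all such calls from 35.9% to 50.03% for siLARP4A and from 37% to 60.2% for siLARP4B, where it also shifted the median of all genes by 0.12.

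The lines differed in the siControl state for 9 of the 10 genes, where 81.8% of all genes were called, 42.1% higher in PC3 and 39.7% lower. SEMA7A is counted here, although its PC3 siControl values entered its choice. The genes other than SEMA7A gave 3 higher in PC3 and 5 lower. NRP1 was 5.06 higher in PC3 on the log2 scale (SE 0.062), NRP2 2.99, SEMA7A 2.62 and SEMA4B 0.70. PLXNA1 was lower in PC3 by -2.04, SEMA3A by -1.17, PLXNB2 by -1.02, SEMA4C by -0.80 and SEMA3C by -0.79, each with an edgeR adjusted p of at most 1.2e-08. PLXNC1 did not pass (0.04, adjusted p 0.89). By mean FPKM in siControl the order in PC3 was NRP1 (125), SEMA4B (38.5), PLXNB2 (33.0), SEMA7A (18.6), PLXNA1 (10.6), SEMA3A (5.97), SEMA3C (5.74), SEMA4C (5.65), NRP2 (4.78) and PLXNC1 (0.227). In that order the replicates of SEMA4C, at 5.38 and 5.92 FPKM, overlapped those of SEMA3C and reached the lower one of SEMA3A, while SEMA3A and SEMA3C did not overlap. In MG63 PLXNB2 (59.9) and PLXNA1 (39.1) led, followed by SEMA4B (21.3), SEMA3A (12.1), SEMA3C (8.90), SEMA4C (8.80), NRP1 (3.35), SEMA7A (2.71), NRP2 (0.535) and PLXNC1 (0.196). SEMA3C and SEMA4C overlapped there. Scaling by library total alone shifted the median of all genes in this comparison by 0.14 and changed no direction among the 9 genes. In cultures sequenced in bulk, fewer cells that express a gene and less RNA per cell cannot be told apart.

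Marker sums moved with the siRNA groups. In PC3 the 5 epithelial markers, none at 0, summed to 852 to 868 FPKM in siControl, 993 to 1042 FPKM with siLARP4A and 796 to 822 FPKM with siLARP4B, the same order as SEMA3A, SEMA3C, NRP1 and NRP2. In MG63 the 8 osteoblast and bone matrix markers, of which up to 2 were at 0 in a group, summed to 1929 to 1974 FPKM in siControl, 2591 to 2693 FPKM with siLARP4A and 1922 to 2144 FPKM with siLARP4B, with siLARP4A highest as for SEMA4C, NRP1 and NRP2. Some other, low marker sums moved in the same orders. In PC3 the prostate luminal markers summed to 0.402 to 0.425, 0.584 to 0.620 and 0.199 to 0.280 FPKM in siControl, siLARP4A and siLARP4B. In MG63 the endothelial markers summed to 3.77 to 4.08, 5.97 to 6.83 and 2.25 to 2.63 FPKM, with siLARP4A highest. Further marker sums moved in other orders. In MG63 the mesenchymal markers VIM and CDH2 summed to 2971 to 2988 FPKM in siControl, 2382 to 2503 FPKM with siLARP4A and 2639 to 2811 FPKM with siLARP4B, and the epithelial markers to 71.5 to 72.2, 64.6 to 67.4 and 54.6 to 56.2 FPKM. In PC3 the bone markers summed to 13.2 to 15.5, 16.9 to 17.1 and 19.96 to 20.1 FPKM, with siLARP4B highest as for PLXNA1, and VIM and CDH2 to 485 to 505, 491 to 525 and 409 to 410 FPKM. Their part in these results was not tested. The leukocyte markers PTPRC and CD3E reached at most 7 and 0 fragments in any library. CD14, also on the leukocyte list, had 4 to 15 fragments in the PC3 libraries and 32 to 78 in those of MG63 (0.991 to 2.57 FPKM).

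Among the 15 semaphorins outside this set, 14 were tested and SEMA5B, at 0 to 8 fragments, was not. With siLARP4A in PC3 1 rose and 4 fell, with a median of 0.13, so that 35.7% of those tested were called, beside 36.0% of all genes. SEMA6B, a transmembrane semaphorin, rose by 1.54 (0.395 to 1.18 FPKM, adjusted p 2.1e-05), and the secreted SEMA3B and SEMA3D fell by 0.70 each. With siLARP4B in PC3 5 rose and 0 fell (35.7% called, beside 44.6% of all genes), with a median of 0.37, among them SEMA6C by 0.96 and SEMA3F, the NRP2 ligand, by 0.78 (SE 0.062, adjusted p 1.1e-09). SEMA3F stood at 13.2 and 13.0 FPKM in siControl and 23.6 and 22.6 FPKM with siLARP4B. With siLARP4A in PC3 it was among the 4 that fell, at 8.69 and 9.88 FPKM (log2 fold change -0.51, edgeR adjusted p 2.9e-06). In MG63 1 rose with siLARP4A (SEMA6B by 0.61, from 9.95 to 15.0 FPKM) and 0 fell. With siLARP4B in MG63 4 rose, led by SEMA6C (0.88) and SEMA6D (0.49) at 1 FPKM or more, and 1 fell, SEMA3B by 0.79, from 22.8 and 23.0 FPKM to 13.8 and 12.2 FPKM. In MG63 7.14% of the semaphorins tested were called with siLARP4A and 35.7% with siLARP4B, beside 26.4% and 35.1% of all genes, and the medians were 0.18 and -0.03.

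The other 6 plexins were all tested. In PC3 2 rose and 1 fell with siLARP4A: PLXND1 rose by 0.66, PLXNA3 by 0.26, and PLXNB3 fell by 0.37. With siLARP4B 3 rose and 1 fell, with PLXNB1 up by 0.91 (4.68 to 9.05 FPKM, edgeR adjusted p 1.3e-09), PLXNA3 up by 0.85 and PLXNA2 lower by -0.35. PLXNB3 was up by 0.43 (4.69 to 6.49 FPKM), opposite to its fall with siLARP4A. In MG63 PLXND1 rose by 0.27 and PLXNB3 fell by 0.40 with siLARP4A. With siLARP4B in MG63 0 rose and 2 fell, PLXNB3 by 0.65 and PLXNA2 by 1.33. PLXNA2 was low there, at 0.859 FPKM in siControl and 0.335 FPKM with siLARP4B (edgeR adjusted p 1.8e-07). The share called was 50% and 66.7% in PC3, beside 36.0% and 44.6% of all genes, and 33.3% with each siRNA in MG63, beside 26.4% and 35.1%, over 6 genes. Medians were -0.04 and 0.25 in PC3 and 0.06 and -0.38 in MG63.

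Of 13 integrin chains and co-receptors, 11 were tested (CHL1 and TIMD4 were not). In PC3 2 rose and 2 fell with siLARP4A, and 3 rose and 3 fell with siLARP4B. ITGB1 rose by 0.20 with siLARP4A (238 and 254 to 295 and 276 FPKM, adjusted p 4.1e-04) and KDR, a VEGF receptor, by 0.33. MST1R, a receptor tyrosine kinase that associates with class B plexins, fell by 0.67 and by 0.48 with siLARP4A and siLARP4B. The adhesion molecule ALCAM fell by 0.36 and by 0.45. ERBB2, another kinase partner of class B plexins, rose by 0.48 with siLARP4B, and the adhesion molecule L1CAM by 0.38. In MG63 4 rose and 0 fell with siLARP4A, including ITGA1, the alpha-1 integrin chain (0.54), and MET, the receptor of hepatocyte growth factor (0.30). With siLARP4B 1 rose (ALCAM, 0.32) and 1 fell (CD72, by 0.48, adjusted p 0.049), and the count of 2 became 1 in 8 alternatives. The share called was 36.4% and 54.5% in PC3, beside 36.0% and 44.6% of all genes, and 36.4% and 18.2% in MG63, beside 26.4% and 35.1%. Medians were 0.05 and -0.06 in PC3 and 0.18 and -0.03 in MG63.

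Of 30 signalling genes downstream of plexins, 29 were tested and DPYSL5 was not. In PC3 11 rose and 6 fell with siLARP4A, and 7 rose and 9 fell with siLARP4B. In MG63 10 rose and 1 fell with siLARP4A, and 9 rose and 6 fell with siLARP4B. The share called was 58.6% and 55.2% in PC3, beside 36.0% and 44.6% of all genes, and 37.9% and 51.7% in MG63, beside 26.4% and 35.1%. Medians were 0.09 and -0.03 in PC3 and 0.06 and -0.00475 in MG63.

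LIMK1, the kinase that phosphorylates cofilin, rose by 0.72 with siLARP4A in each line. It went from 24.3 and 23.5 FPKM to 37.3 and 42.0 FPKM in PC3 (adjusted p 4.7e-09) and from 15.4 and 15.0 FPKM to 24.9 and 24.3 FPKM in MG63 (adjusted p 2.5e-08). PAK1, which acts on LIMK1, rose by 0.60 with siLARP4A and fell by 0.54 with siLARP4B in PC3. DPYSL3, a collapsin response mediator protein of the semaphorin pathway, had the largest change of the list with siLARP4B in PC3. It stood at 29.3 and 28.9 FPKM in PC3 siControl and 5.31 and 5.46 FPKM with siLARP4B, so it fell by 2.48 (SE 0.059, adjusted p 3.9e-18). In MG63 it went from 55.9 and 56.0 FPKM to 23.3 and 21.9 FPKM with siLARP4B, where it fell by 1.28, and to 80.0 and 81.4 FPKM with siLARP4A, a rise of 0.55. Its relative DPYSL2 fell by 0.88 with siLARP4A in PC3 and by 0.31 in MG63, and DPYSL4 fell by 0.56 in PC3. FYN, a Src-family kinase, rose by 0.47 with siLARP4B in PC3 and by 0.36 in MG63. In PC3 MICAL1, an actin-oxidising enzyme bound by plexins, rose by 0.59 with siLARP4B. In MG63 FARP2, an exchange factor of the pathway, rose by 0.45 with siLARP4B, and the tyrosine kinase FES fell by 1.34 (1.03 to 0.399 FPKM).

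**Figure D4:**
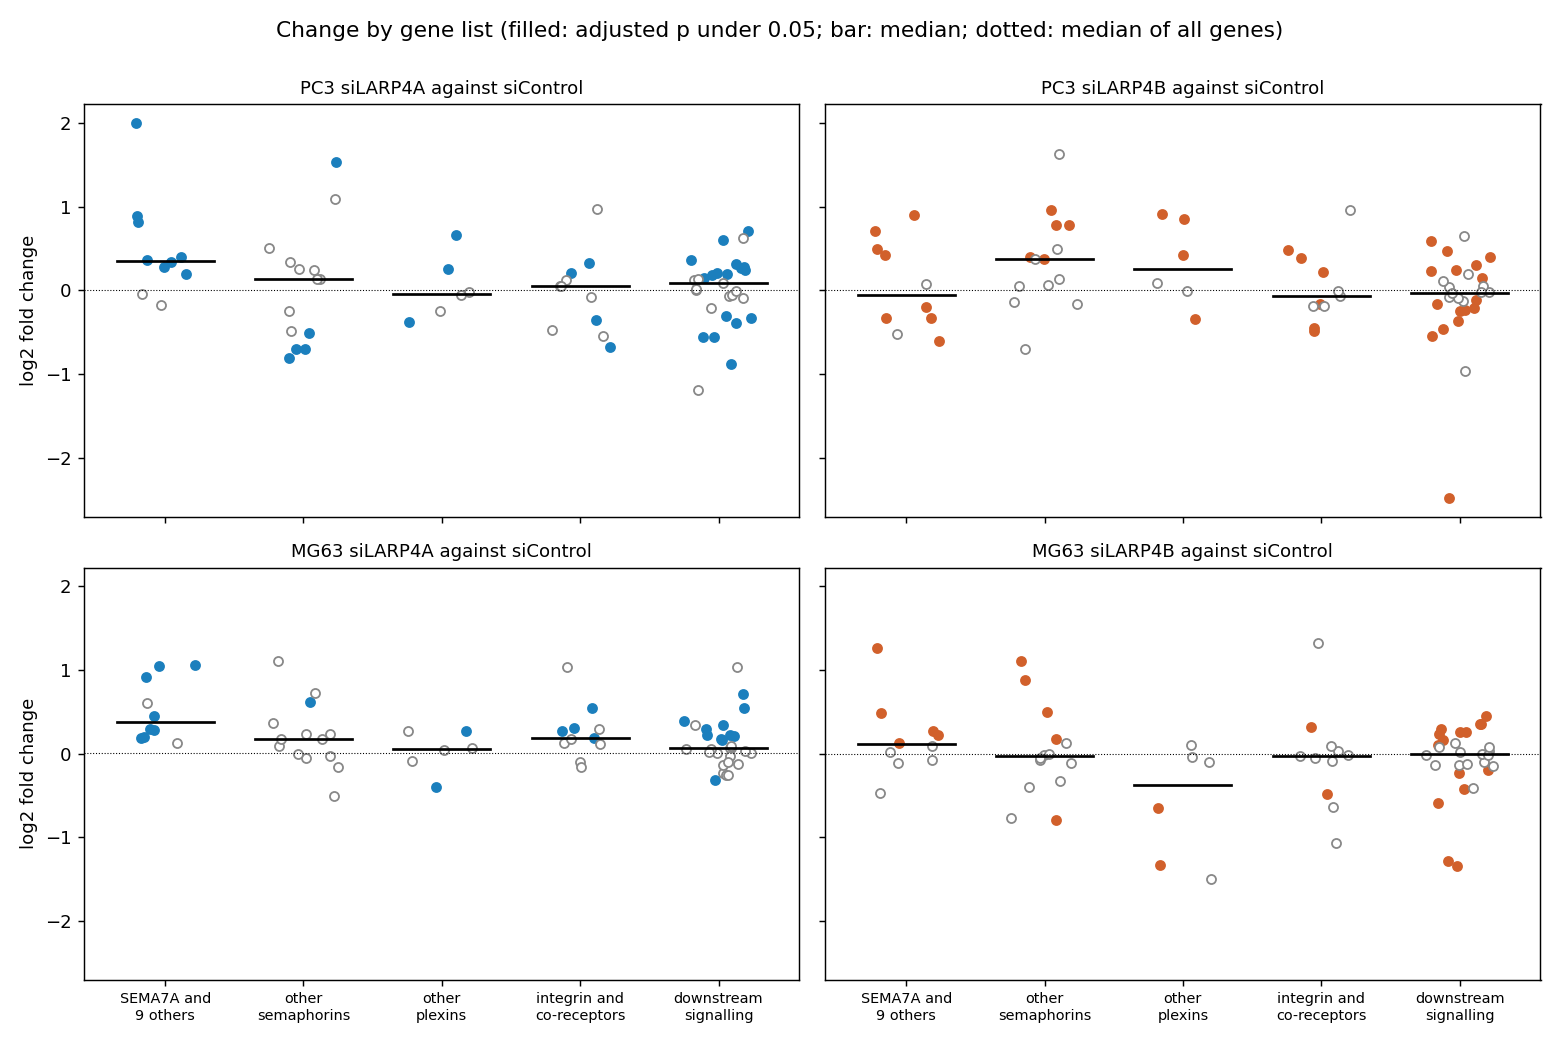
Log2 fold change against siControl (vertical axis) of each tested gene in the 10-gene set and the 4 lists, by siRNA and line; filled points passed an adjusted p of 0.05, bars are list medians and the dotted line is the median of all genes. The 10-gene set, chosen with results in view, has medians of 0.35 and 0.37 with siLARP4A in PC3 and MG63 (0.34 and 0.30 without SEMA7A). DPYSL3 is the lowest point with siLARP4B in PC3, at -2.48.

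The 5 genes most like SEMA7A were SNCB, DUSP2, DAB2, ABCC5 and JAZF1. Likeness was Pearson's r with SEMA7A over the 12 libraries, on log2(FPKM + 1) after the mean of each line was taken out, among 1192 genes with a mean of at least 5 FPKM in a line and an SD of at least 0.3. The r values were 0.979, 0.974, 0.931, 0.929 and 0.907. They describe 12 libraries in 6 groups that include the PC3 siLARP4A rise, and were computed over the same libraries for all genes. SNCB, beta-synuclein, had means of 0.712, 2.26 and 1.35 FPKM in PC3 siControl, siLARP4A and siLARP4B and of 9.69, 12.4 and 12.6 FPKM in MG63. DUSP2, a phosphatase of MAP kinases, had 7.66, 17.1 and 11.1 FPKM in PC3 and 2.85, 4.15 and 3.93 FPKM in MG63. Unlike SEMA7A, SNCB was higher in MG63 than in PC3, whereas DUSP2 was higher in PC3. Against siControl in PC3 with siLARP4A, ABCC5, a transporter that exports cyclic nucleotides, was higher by 1.19. JAZF1, a zinc finger protein, was higher by 0.87 and DAB2, an endocytic adaptor, by 0.74. That contrast enters the likeness by which these genes were picked, so these values are a description. With siLARP4B in PC3 the values were 0.90 for ABCC5, 0.24 for JAZF1 and 0.12 for DAB2, beside 0.90 for SEMA7A. In MG63 they were 0.79, 0.62 and 0.51 with siLARP4A and 0.71, 0.40 and 0.70 with siLARP4B.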

How the data were processed

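Poly(A) RNA sequencing of 12 libraries was analysed from the authors' tables, 1 per library, with 86394 transcript models. Per the file headers, the deposited tables give a fragment count, an FPM signal (the count over the total of its library) and an FPKM value (FPM per kilobase of model) for each model. Fragments in shared exons are counted in every model, so the deposited FPM values sum to 3350000 on average. The submitters' processing notes name FastQC, HISAT2, featureCounts, edgeR and the build hg38, without versions or roles; annotation, strand handling and filters are not given in the sources used here. PC3 siControl replicate 2 has a further deduplicated table, used only as an alternative.

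Models on chromosomes 1 to 22 and X were collapsed to the model with the most fragments per symbol. The 1744 symbols at more than 1 locus were left out, which kept 26419. Counts were tested with edgeR 4.0.16 (R 4.3.3): quasi-likelihood F-test, two-sided, TMM scaling, filterByExpr, all 12 libraries in 1 fit with a mean per group, and Benjamini-Hochberg adjustment over 15671 genes. The common dispersion was 0.00177, and with 2 libraries per group the spread is largely borrowed from other genes. The script was tested on simulated data. The 9 comparisons were each siRNA against siControl and the siRNAs against each other in each line, the line difference in each siRNA's effect, and the lines in siControl. FPKM values were used for levels, and positions are those of the tables, counted from 1. Alternatives were DESeq2 1.42.0, limma 3.58.1 on log2(FPKM + 1), no filter, a mean FPKM of at least 5, the longest model, the deduplicated table, a replicate block, the libraries of a line alone, leaving out each library, and, added after the data were seen, median-ratio scaling, scaling by library total alone, another pair of NRP2 models, and the likeness to SEMA7A under other models and libraries.

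The members and gene lists were chosen with earlier results of these data known. Beyond the 10 genes, each list names at most its 2 highest and 2 lowest called genes with a mean of at least 1 FPKM, per comparison with siControl. ITGB1 in siControl, SEMA3F and the marker genes are given as background levels. In PC3, PLXNB3 with siLARP4B and SEMA3F with siLARP4A are named beyond that rule, because they moved in opposite directions with the siRNAs. PLXNA2 with siLARP4B in MG63 is also named beyond it, as the larger of the plexin falls there.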

Additional observations from a re-analysis of the deposited data

Results flagged for a closer look

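Each value here is a difference, tested as such, between PC3 and MG63 in the log2 change that an siRNA gave against siControl. With siLARP4A the change of PLXNB2 differed by -0.34. With siLARP4B the changes of SEMA7A (-0.36), SEMA3A (-0.69) and NRP1 (-0.35) were lower in PC3, and those of PLXNA1 (0.22) and PLXNB2 (0.30) were higher. For SEMA7A this difference uses the PC3 siControl libraries that also entered its choice. The SEMA7A value lost its call in 12 of 17 alternatives.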

How the results depend on the processing

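Most results held. Of 1262 alternative values for single genes among the 10, 1159 kept their direction and their side of the threshold, and 32 turned sign with no call in either fit. Another 60 lost their call, 10 gained one, and 1 called value reversed, the NRP2 change with siLARP4B in PC3 (0.084 with the longest model); the cause was not tested. The SEMA7A line difference with siLARP4B was lost with DESeq2 (-0.34), a mean FPKM of at least 5 (-0.29), limma (-0.081), the longest model (-0.32) and scaling by library total alone (-0.24), and ran from -0.47 to -0.25 when each library was left out. The SEMA7A difference between the siRNAs in MG63 passed with no filter on low counts (-0.23), with the longest model (-0.23) and without MG63 siLARP4B replicate 2, with a range of -0.33 to -0.10 over libraries left out. The causes were not tested. The 3 tested rises of SEMA7A against siControl kept their call under every alternative run, and that with siLARP4B in MG63 ran from 1.14 to 1.36 over libraries left out. Over libraries left out, the number of the 10 genes called ran from 7 to 8 and 6 to 7 with siLARP4A and siLARP4B in PC3, from 6 to 8 and 3 to 5 in MG63, and from 1 to 3 and 2 to 5 for the line differences, counts that include SEMA7A. A mean FPKM of at least 5 left 3 other semaphorins and 1 other plexin to test, so that their calls became 3, 1 and 2 instead of 5, 5 and 5 for the semaphorins (siLARP4A and siLARP4B in PC3, siLARP4B in MG63). No pairing by replicate number was seen: deviations of same-numbered libraries correlated at -0.03 to 0.05 in the 6 pairs of groups. That cannot show whether same-numbered libraries were prepared together, since sampling noise also enters these deviations. With a replicate block, the SEMA3C calls in PC3 (0.19 with siLARP4A, -0.19 with siLARP4B) and the PLXNB2 call with siLARP4B in MG63 (0.13) were lost. PLXNC1 at 18 to 45 fragments and NRP2 in MG63 are limited by depth.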
